A study of Sus scrofa with 4 samples.

Results

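The mitochondrial ribosome and protein import genes were followed in porcine (Sus scrofa) blastocysts as all probes whose symbol in the platform's probe-to-gene table begins with MRPL, MRPS, TOMM or TIMM and a number. This gave 110 of the 43794 probes and 67 of 11909 named genes: 31 MRPL, 23 MRPS, 7 TOMM and 6 TIMM genes, all of whose symbols are current in RefSeq. MRPL58, a ribosomal protein with release factor activity, is listed in the platform's table under its older symbol ICT1 and was therefore not a member; its fitted log2 ratio was 0.032. Blastocysts of the coculture group came from oocytes that were matured, within their cumulus cells, in the presence of porcine luteal cells. Those of the control group came from oocytes matured without luteal cells. Each of 4 two-colour arrays, named biological replicates 1 to 4 in the labels, carried 1 coculture sample and 1 control sample. Coculture RNA was labelled with Cy5 (control with Cy3) for replicates 1 and 2, and with Cy3 (control with Cy5) for replicates 3 and 4. The design text speaks of 4 pools of 10 blastocysts from days 7 and 8, without assigning a day to an array or tying pools to donors or culture runs. What the p-values set the ratios against is thus the spread between array pairs of like dye assignment, which may be technical. Limma draws this spread, which has 2 degrees of freedom, towards a value pooled over all probes tested, which has 6.03.

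Mitochondria keep a ribosome of their own, which makes the few proteins encoded by mitochondrial DNA, all of them membrane subunits of the respiratory chain and the ATP synthase. Its protein subunits, MRPL for the large and MRPS for the small one by their names, are encoded in the nucleus, made in the cytosol and imported. Import runs through the TOM complex of the outer membrane, then the TIM23 complex (for proteins with a presequence) or the TIM22 complex (for membrane carriers), with small TIM chaperones in the space between. In mammalian embryos mitochondrial DNA is largely not replicated during early cleavage, and the trophectoderm of the blastocyst is known for its high demand for respiration.

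For no member gene did the difference, coculture against control, pass the test once p-values were adjusted over all probes tested. The lowest ratios, coculture over control, belonged to the large-subunit genes MRPL28 (log2 ratio -0.79) and MRPL20 (-0.56), and the highest to TIMM8B (0.33) and MRPL3 (0.30), with n = 4 arrays each. In limma's test with Benjamini-Hochberg adjustment over all 15631 probes tested, 0 of the 87 member probes tested had an adjusted p under 0.05, against a background of 0% of all probes, and the lowest adjusted p was 0.63. At an unadjusted p under 0.05 there were 9 member probes, 10.3% of those tested, against 7.86% of all probes. Of these, 2 were higher in coculture (2.30%, against 4.16% of all probes) and 7 lower (8.05%, against 3.70%). Both brighter MRPL28 probes were among the lower ones, and MRPL38 had a probe on each side, so these are not all separate genes. The 7 lower ones became 0 when replicate 2 was left out and 10 without replicate 1. In bulk pools, fewer cells of a type and less RNA per cell cannot be told apart.

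Markers of the labelled stage were measured first. Of 10 trophectoderm markers with a probe, 7 (KRT8, KRT18, GATA2, GATA3, TEAD4, TFAP2C and DAB2) lay above the detection limit for both dyes on all 4 arrays. Of 5 inner cell mass and epiblast markers, POU5F1 and LIN28A did, KLF4 and SALL4 exceeded it on no array, and SOX2 exceeded it on 1 coculture and 1 control array. Of 5 primitive endoderm markers, APOA1 and GATA6 lay above it throughout, and of 8 oocyte markers ZP2 did. Of 10 markers of granulosa, cumulus and luteal cells, 0 lay above it throughout and 4 were bright enough to be tested. By their brightest tested probe, AMH exceeded it on 4 coculture and 2 control arrays, HAS2 on 3 and 1, STAR on 2 and 3, and LHCGR on 2 and 2, while FSHR and PTX3 exceeded it on none. The detection limit of a channel was the mean plus 2 SD of its 153 negative-control spots. Median probe intensities were 585 to 840 and those of the negative controls 591 to 817. More probes exceeded the limit in Cy3 (29.9% to 34.9%) than in Cy5 (23.6% to 29.3%) on each array, whichever condition carried it.

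Member transcripts were well represented in these embryos. Of the 110 member probes, 66 (60.0%) lay above the limit for both dyes on all 4 arrays, against 16.4% of all probes, and 14 (12.7%) exceeded it on none, against 52.1%. In the coculture channel 80, 70, 85 and 79 member probes exceeded it on replicates 1 to 4, and in the control channel 88, 85, 72 and 74. The coculture count was the lower one on replicates 1 and 2 and the higher one on replicates 3 and 4, so that on each array the higher count was that of Cy3. A probe entered the test with at least 2 arrays above the limit for coculture or for control and values from 3 or more arrays, as 87 of the 110 did, representing 61 of the 67 genes. Every member probe carries a gene symbol, against 18121 of all 43794 probes. Of the genes tested, 88.5% of members and 53.8% of all named genes lay above the limit throughout, by their brightest tested probe. The 6 genes without a tested probe were MRPL23, MRPS33, MRPS35, TOMM40, TOMM40L and TOMM20L. TOMM40, the channel of the outer membrane, had 1 probe, which exceeded the limit on 1 coculture array and on no control array. No member spot was left out by the image quantification and none was saturated.

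The member genes as a whole lay slightly below 0. A gene with several tested probes is represented by its probe of highest mean intensity. Of the 61 genes, 36 (59.0%) had a fitted log2 ratio below 0 and 25 above, with a median of -0.052, against 51.2% below 0 and a median of -0.0061 over all 5353 named genes tested. Among genes above the limit for both dyes on all 4 arrays the shares were closer. There 30 of 54 members (55.6%) lay below 0, against 53.9% of 2880 genes, with medians of -0.041 and -0.019. Most trophectoderm markers also lay below 0. The 9 trophectoderm genes tested had a median of -0.19, with 7 below 0, and summed intensities of 185733 to 239209 in coculture and 188269 to 233617 in control. KRT8 (fit 0.074) and KRT18 (fit 0.082), the genes above 0, gave most of each sum. Their intensities, 57278 to 67168 by the brightest probes, lay near the upper end of the scanner's range. The sums therefore cannot show whether the trophectoderm content was equal. Both inner cell mass and epiblast genes tested lay below 0 as well. POU5F1 had a fit of -0.38 (limma unadjusted p = 0.040, adjusted p = 0.63), with its other probe at -0.22, and LIN28A of -0.11. The 4 primitive endoderm genes tested had sums of 6264 to 9874 in coculture and 6621 to 13124 in control. Of these, APOA1 had a fit of -1.08 (limma unadjusted p = 0.00012, adjusted p = 0.63) and APOE of -1.03 (limma unadjusted p = 0.00038, adjusted p = 0.63). GATA6 had a fit of 0.34 and RBP4 of 0.024. APOA1 stood at -2.15 and -2.54 on replicates 1 and 2, but at -0.029 and 0.39 on replicates 3 and 4. The other tested probe of APOE had a fit of -0.0017. The part of these cell types in the members' ratios was not tested. Member ratios ran from -0.79 to 0.33 with an SD over genes of 0.218, close to the 0.231 over all named genes. The half-width of a member's 95% interval had a median of 0.349.

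**Figure D1:**
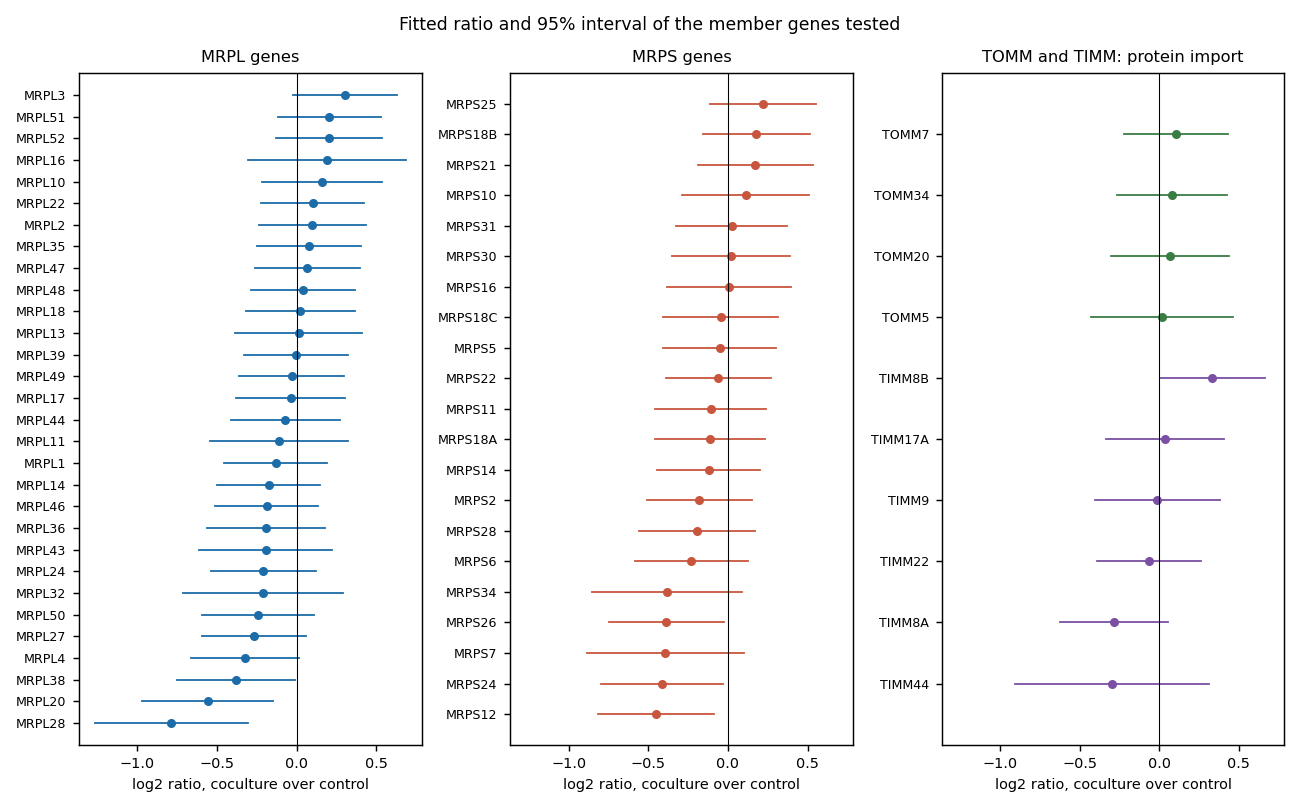
Fitted log2 ratio of coculture over control (points) with its 95% interval (lines) for the 61 member genes tested, from limma on 4 arrays. MRPL, MRPS and the import genes are in separate panels with 1 horizontal scale. The intervals of 54 genes include 0, and 0 of the 61 genes had an adjusted p under 0.05.

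By role, the medians stood at -0.053 for the 30 MRPL genes tested, -0.11 for the 21 MRPS genes, 0.073 for the 4 TOMM genes and -0.039 for the 6 TIMM genes. Below 0 were 18 of 30 MRPL, 14 of 21 MRPS, 0 of 4 TOMM and 4 of 6 TIMM genes. The split depended on centring. With median centring of each array in place of loess, 47 of the 61 genes lay below 0 and 14 above, the median of all probes tested itself shifting from 0.0018 to -0.067, and the medians became -0.12, -0.15, -0.018 and -0.11 for MRPL, MRPS, TOMM and TIMM. With mean pixel intensities the TOMM median was -0.014.

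The arrays differed in where the members lay. On replicates 1 to 4 the median over the 61 genes was -0.050, -0.21, 0.0041 and -0.097, and 34, 40, 30 and 41 of them lay below 0. Over all named genes tested, the medians of the same arrays stayed between -0.0164 and -0.00145. Replicate 2 stood lowest and also had the widest spread over the members, with an SD of 0.484, against 0.284 to 0.324 on the other arrays. Over all named genes replicate 2 did not stand out, with an SD of 0.449 in a range of 0.391 to 0.484. The median fitted ratio of the members was -0.13 without replicate 1, -0.0074 without replicate 2, -0.099 without replicate 3 and -0.0067 without replicate 4.

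**Figure D2:**
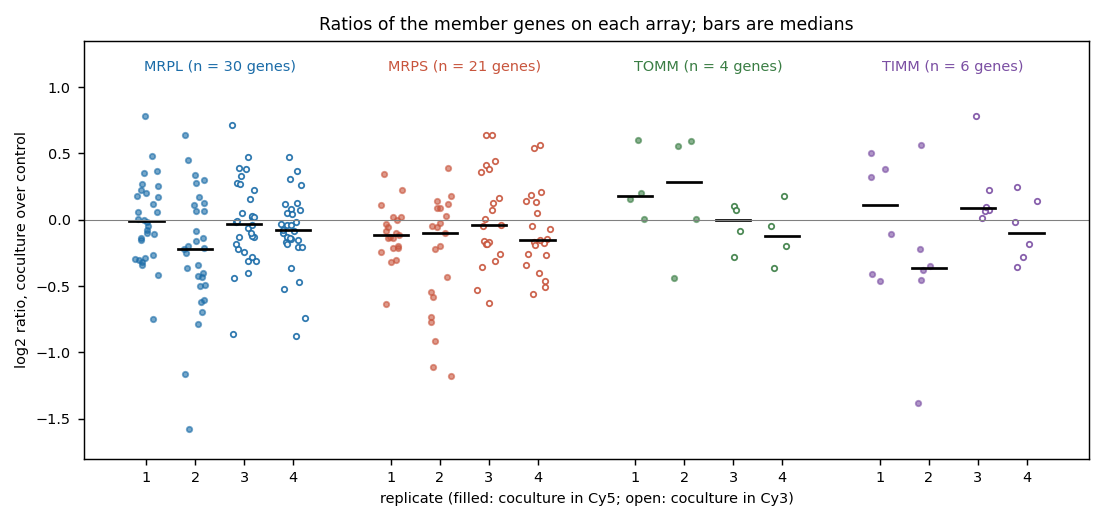
Log2 ratio of coculture over control (vertical) for each member gene tested on replicates 1 to 4 (horizontal), by family, with the median of each family as a bar. Filled points are arrays with coculture in Cy5 and open points arrays with coculture in Cy3. The lowest values, down to -1.58, are on replicate 2.

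Members kept 1 sign over the 4 arrays more often than named genes in general. This held for 17 of 61 genes (27.9%), 6 of them above 0 and 11 below, against 14.5% of all named genes tested, of which 6.35% lay above 0 on all 4 arrays and 8.11% below. Among genes above the limit for both dyes on all 4 arrays it held for 16 of 54 members (29.6%), against 15.9% of 2880 genes. The difference between the shares was not tested. By family, 10 of 30 MRPL genes, 5 of 21 MRPS genes, 1 of 4 TOMM genes and 1 of 6 TIMM genes had 1 sign.

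The opposite pattern, both arrays of 1 dye orientation on one side of 0 and both of the other orientation on the other side, was seen in 10 of 61 members (16.4%), against 19.1% of all named genes. MRPL48, of the large subunit, was an example, named after its values were seen. It stood at 0.48 and 0.64 on replicates 1 and 2 and at -0.44 and -0.52 on replicates 3 and 4, with a fitted ratio of 0.041. MRPS2, of the small subunit, was another, at -0.63, -0.73, 0.44 and 0.21, with a fitted ratio of -0.18. Its probe was dim and exceeded the limit on 1 coculture and 2 control arrays, whereas that of MRPL48 did so on all 4 of each. In such genes dye orientation and the pools of these arrays cannot be told apart. Across the 61 genes, as a description over points that share arrays, labelling and normalization, ratios correlated between replicates 1 and 2 with r = 0.34 and between replicates 3 and 4 with r = 0.22. Over all named genes the values for these pairs were 0.23 and 0.22. Between arrays of opposite dyes r was 0.37 for replicates 2 and 4 and -0.042 to 0.13 for the other pairs, against -0.073 to -0.021 over all named genes. Among genes above the limit for both dyes on all 4 arrays, r for replicates 2 and 4 was 0.38 over members and 0.11 over all.

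MRPL28, a protein of the large subunit with a bacterial counterpart, had the lowest fitted ratio of the members. Its brightest probe had normalized intensities of 2199.8, 1139, 3216 and 1100.0 in the coculture channels of replicates 1 to 4, against 3693, 3395, 3104 and 2022 in the control channels. The ratios were -0.75, -1.58, 0.051 and -0.88. Coculture was thus lower on 3 arrays and level with control on replicate 3. The fitted log2 ratio was -0.79 ± 0.21 (SE, n = 4; 95% interval -1.27 to -0.31; limma unadjusted p = 0.0055, adjusted p = 0.63).

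The other probes of MRPL28 were also tested. One had 1923, 660.1, 2153 and 1216 in coculture, against 2755, 2548, 1888 and 2862 in control, which gives ratios of -0.52, -1.95, 0.19 and -1.24 and a fit of -0.88 (95% interval -1.54 to -0.21; limma adjusted p = 0.63). It followed the first probe from array to array. The third probe had 905, 653, 758 and 512 in coculture, against 1066, 1070.0, 581 and 506 in control, and a fit of -0.14 (-0.50 to 0.23). Its ratio was below 0 on replicates 1 and 2 alone. Leaving out replicate 2 moved the ratio of the brightest probe to -0.58, and the mean over the 3 probes was -0.60.

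MRPL20, which also has a bacterial counterpart, stood below 0 on all 4 arrays. Its brighter probe had intensities of 4348, 2185, 3086 and 1570.1 in coculture, against 5324, 4884, 3819 and 2175 in control. The ratios were -0.29, -1.16, -0.31 and -0.47, and the fit was -0.56 ± 0.18 (SE; 95% interval -0.97 to -0.15; limma adjusted p = 0.63). Coculture was the lower channel on every array, by the most on replicate 2. Without replicate 2 the ratio was -0.34. Its other probe, above the limit on 1 coculture and 3 control arrays, stood at -0.43.

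MRPL38, a subunit found in the mitochondrial ribosome and not in the bacterial one, had probes that pointed opposite ways. The brighter probe had 1509.6, 1565, 1961 and 1278 in coculture, against 1861, 2011, 2134 and 2132 in control, with ratios of -0.30, -0.36, -0.12 and -0.74 and a fit of -0.38 (95% interval -0.75 to -0.01; limma adjusted p = 0.63). The dimmer probe had 555, 675, 721 and 515 in coculture, against 452, 571, 472 and 414 in control, with ratios of 0.30, 0.24, 0.61 and 0.32 and a fit of 0.37 (0.03 to 0.70; limma adjusted p = 0.63). Each probe thus kept its own sign on all 4 arrays, and the mean of the pair was -0.0074. The dimmer probe exceeded the limit on all 4 coculture arrays and on 2 control arrays. The brighter one stood at -0.23 without replicate 4 and at -0.18 with mean pixel intensities. Which transcripts the probes read was not tested.

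**Figure D3:**
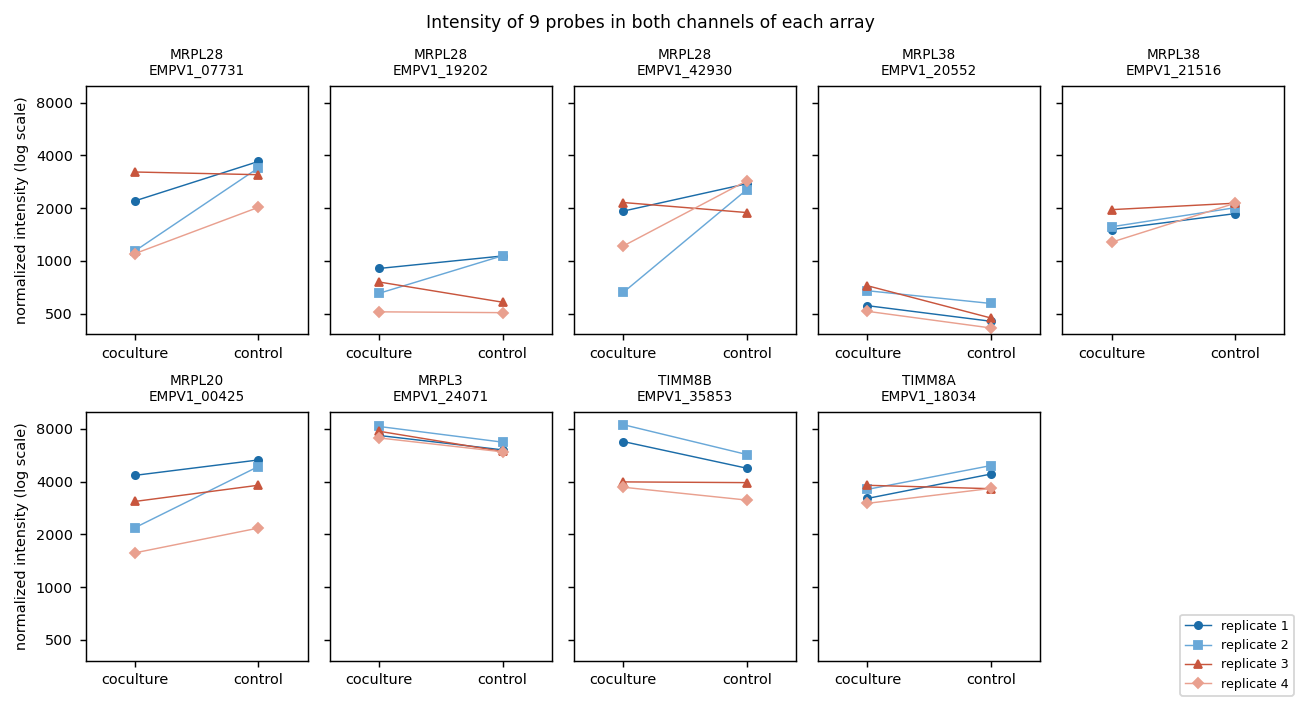
Normalized intensity (log scale) of 9 probes in the coculture and control channels, joined by a line for each of the 4 arrays. Both brighter MRPL28 probes lie lower in coculture on replicates 1, 2 and 4, the MRPL38 probes slope in opposite directions on all 4 arrays, and TIMM8B and TIMM8A slope in opposite directions on replicates 1, 2 and 4.

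MRPL4, which lines the tunnel through which the new protein leaves, had the lowest p after these among large-subunit genes with a negative ratio. It stood at -0.26, -0.50, -0.40 and -0.13 on replicates 1 to 4 and at -0.32 in the fit (95% interval -0.66 to 0.02). Its other tested probe stood at -0.13.

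MRPL3, a core protein of the large subunit, had the most even ratios of the genes described here. Its probe had 7346, 8269, 7766 and 7112 in coculture, against 6080.3, 6729, 5951 and 5923 in control. The ratios were 0.27, 0.30, 0.38 and 0.26, and the fit was 0.30 ± 0.14 (SE; 95% interval -0.02 to 0.63; limma unadjusted p = 0.0625, adjusted p = 0.65). Coculture was the higher channel on every array, at 1.23-fold in the fit. From mean rather than median pixel intensities the ratio was 0.083.

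Other large-subunit genes with a positive ratio were smaller in size. MRPL51 stood at 0.062, 0.066, 0.33 and 0.36, with a fit of 0.21 (95% interval -0.12 to 0.53), and MRPL52 at 0.17, 0.34, 0.27 and 0.044, with a fit of 0.21 (-0.13 to 0.54). Both are subunits without a bacterial counterpart, and both lay above 0 on all 4 arrays. From mean pixel intensities their ratios were 0.038 and 0.11. MRPL10, at the base of the stalk that recruits translation factors, had ratios of 0.061, -0.25, 0.71 and 0.12 and a fit of 0.16, or 0.010 without replicate 3.

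Among small-subunit genes the lowest ratio was that of MRPS12, a protein of the decoding centre. It had intensities of 750.4, 541, 597 and 435 in coculture, against 928, 926, 672 and 639.8 in control. The ratios were -0.31, -0.77, -0.17 and -0.56, and the fit was -0.45 ± 0.16 (SE; 95% interval -0.82 to -0.09; limma unadjusted p = 0.022, adjusted p = 0.63). Coculture was lower on every array. The probe exceeded the limit on 2 coculture arrays and on all 4 control arrays, and without background correction the ratio was -0.30.

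MRPS24, the counterpart of a bacterial protein at the entry of the messenger RNA, also lay below 0 on all 4 arrays, by both of its probes. The brighter probe had 4986, 3819, 4607 and 3473 in coculture, against 5774, 7183, 5233 and 4393 in control. Its ratios were -0.21, -0.91, -0.18 and -0.34, with a fit of -0.41 (95% interval -0.79 to -0.03; limma adjusted p = 0.63), or -0.24 without replicate 2. The other probe stood at -0.12, -0.74, -0.55 and -0.054, with a fit of -0.37 (-0.76 to 0.03).

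MRPS26, a subunit of mitochondria alone, had 21656, 13059, 10137 and 9463 in coculture, against 25051, 19024, 15686 and 10649.9 in control by its brightest probe. The ratios were -0.21, -0.54, -0.63 and -0.17, below 0 on all 4 arrays, and the fit was -0.39 (95% interval -0.75 to -0.03; limma adjusted p = 0.63). Its other probes stood at -0.14 and -0.039, and the mean over the probes at -0.19. MRPS34, also of mitochondria alone, had ratios of 0.023, -1.11, -0.046 and -0.40. Its fit of -0.38 (-0.85 to 0.09) became -0.10 without replicate 2.

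Positive ratios of small-subunit genes were led by MRPS25, a subunit of mitochondria alone, at 0.22, 0.12, 0.41 and 0.13, above 0 on all 4 arrays with a fit of 0.22 (95% interval -0.11 to 0.56). MRPS18B, 1 of 3 related proteins with MRPS18A and MRPS18C, stood at -0.24, 0.032, 0.36 and 0.56, with a fit of 0.18. MRPS18A stood at -0.11. The brighter probe of MRPS18C stood at -0.045 and its other probe at 0.26, 0.31, 0.30 and 0.11 on the 4 arrays, with a fit of 0.25 (95% interval -0.08 to 0.57). MRPS18A and MRPS18C were named after their values were seen. MRPS21 had a fit of 0.17 and array values of -0.032, 0.18, 0.0041 and 0.54. MRPS10 had a fit of 0.11, or -0.083 without replicate 3, where it stood at 0.64.

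Despite their names, MRPS18A and MRPS30 are known to sit in the large subunit of the mammalian mitochondrial ribosome. MRPS30 stood at 0.021 (95% interval -0.35 to 0.39). Of the ribosomal genes tested, the 35 with a bacterial counterpart had a median of -0.11 with 22 below 0, and the 16 of mitochondria alone had a median of -0.046 with 10 below 0. This grouping was drawn up after the values had been seen. The shares below 0 were thus 62.9% and 62.5%.

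**Figure D4:**
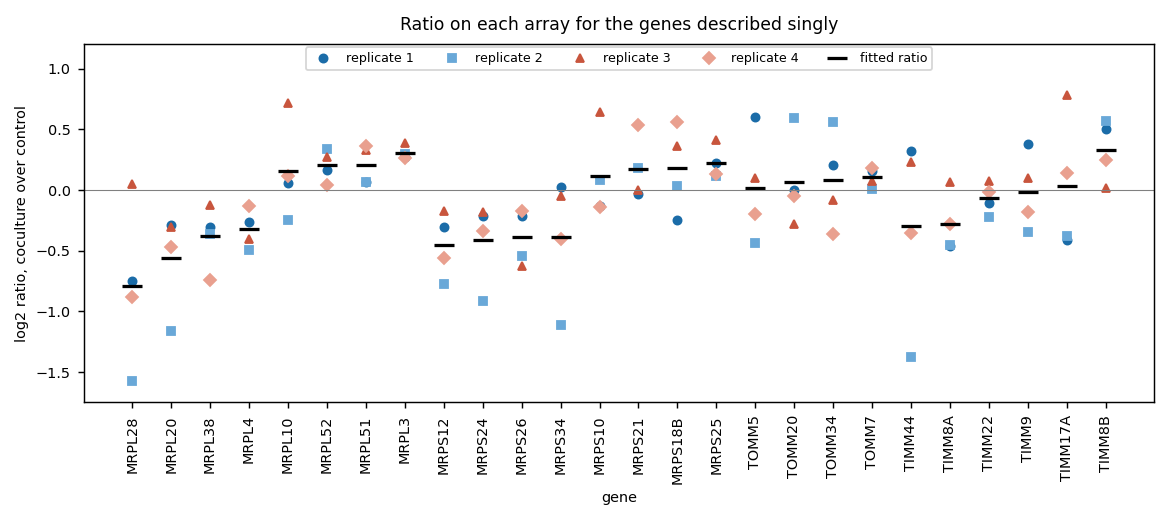
Log2 ratio of coculture over control on replicates 1 to 4 (symbols) and the fitted ratio (bars) for the 26 genes described singly, ordered by family and fitted ratio. MRPL3 has the tightest values, and MRPL28, MRPL20, MRPS34 and TIMM44 each have their lowest value on replicate 2.

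The TOM complex was measured by few genes. TOMM20, its receptor for presequences, had ratios of 0.0037, 0.59, -0.28 and -0.048 by the brightest of 4 tested probes, with a fit of 0.066 (95% interval -0.30 to 0.44). Its other probes stood at 0.30, 0.20 and -0.11, and 1 of them was above 0 on all 4 arrays, at 0.26, 0.24, 0.14 and 0.16. The sign of the brightest probe turned with median centring (-0.020), mean pixel intensities (-0.12) and without replicate 2 (-0.081). TOMM7, a small subunit of the complex, stood at 0.15, 0.0079, 0.076 and 0.18, with a fit of 0.11 (-0.22 to 0.43), and lay above 0 on all 4 arrays. TOMM5, another small subunit, ranged from -0.44 on replicate 2 to 0.60 on replicate 1, with a fit of 0.018.

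TOMM34, which despite its name is a cytosolic helper of the chaperones HSP70 and HSP90, had 7 probes, of which 3 were tested. The brightest stood at 0.21, 0.56, -0.085 and -0.36 on replicates 1 to 4, positive in 1 dye orientation and negative in the other, with a fit of 0.079 (95% interval -0.27 to 0.43). The others stood at 0.059 and -0.070. The last of these exceeded the limit on no coculture array and on 2 control arrays. Its ratios were -0.27, -0.32, 0.12 and 0.19 (95% interval of the fit -0.39 to 0.25; limma adjusted p = 0.93).

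The small TIM proteins carry hydrophobic proteins across the space between the membranes. TIMM8A, mutated in a human deafness-dystonia syndrome, and its relative TIMM8B lay on opposite sides of 0. TIMM8B had 6784, 8468, 3990.4 and 3720.2 in coculture, against 4778, 5720.3, 3952 and 3142 in control. Its ratios were 0.51, 0.57, 0.014 and 0.24, above 0 on all 4 arrays, with a fit of 0.33 ± 0.14 (SE; 95% interval 0.0025 to 0.66; limma unadjusted p = 0.049, adjusted p = 0.63).

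TIMM8A had 3210.45, 3616, 3816 and 3009.8 in coculture, against 4423, 4945, 3649 and 3663 in control. Its ratios were -0.46, -0.45, 0.064 and -0.28, with a fit of -0.28 (95% interval -0.62 to 0.05; limma adjusted p = 0.68). Coculture was thus the higher channel for TIMM8B and the lower one for TIMM8A on replicates 1, 2 and 4. The difference between the genes was not tested. With mean pixel intensities TIMM8B stood at 0.12 and TIMM8A at -0.041. TIMM9, which works in a complex with TIMM10, ranged from -0.35 to 0.38 and had a fit of -0.012.

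Of the inner membrane translocases, TIMM44, which tethers the import motor to the TIM23 channel, had ratios of 0.32, -1.38, 0.23 and -0.35. Its fit of -0.30 (95% interval -0.90 to 0.31) rested on replicate 2, without which it was 0.13. Without replicate 1 it was -0.72 and without replicate 4 -0.15. TIMM17A, a core part of the TIM23 complex, stood at -0.41, -0.38, 0.78 and 0.14, negative in 1 dye orientation and positive in the other, with a fit of 0.033. Its other probe, above the limit on 2 coculture arrays and 1 control array, stood at 0.050. TIMM22, the channel of the carrier route, stood at -0.11, -0.22, 0.077 and -0.016, with a fit of -0.066 (-0.39 to 0.26).

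At gene level, 7 of the 61 members (11.5%) had an unadjusted p under 0.05, against 8.46% of all named genes tested. Of these, 1 was higher, TIMM8B, against 3.75% of all genes, and 6 were lower, MRPL28, MRPL20, MRPS12, MRPS24, MRPS26 and MRPL38, against 4.71%. All 6 of the lower genes encode ribosomal proteins, as do 51 of the 61 genes tested. Among genes above the limit for both dyes on all 4 arrays, 6 of 54 members (11.1%) and 8.72% of all did so. Of the 18 members with several tested probes, 9 had probes of 1 sign and 9 of both signs. Over all such genes 47.1% had 1 sign. The widest gaps between probes were those of MRPL38 (0.75), MRPL28 (0.74), TOMM20 (0.40) and MRPS26 (0.35), against a median gap of 0.18 over the 18 members and 0.21 over all such genes.

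Other genes of mitochondrial translation and import, from lists drawn up with earlier results of these data known, did not pass either: 0 in each list had an adjusted p under 0.05 in limma. At an unadjusted p under 0.05 the counts were 0 of 8 translation factors and related genes such as LRPPRC, and 0 of 6 enzymes that charge mitochondrial tRNA or complete its charging. They were 2 of 13 in a list of ribosome assembly genes that also holds the ribosomal proteins DAP3, PTCD3, CHCHD1, GADD45GIP1 and MRPL58. They were 1 of 22 import partners and 0 of 6 genes of mitochondrial DNA upkeep. The share over all named genes was 8.46%, and nothing is read from counts this small. The list medians were -0.061, -0.22, -0.064, -0.00075 and -0.011.

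MIPEP, the peptidase that trims imported proteins after the presequence is removed, stood lowest. Its ratios were -0.22, -1.69, -0.75 and -0.94, below 0 on all 4 arrays, with a fit of -0.90 ± 0.23 (SE; 95% interval -1.43 to -0.36; limma unadjusted p = 0.0047, adjusted p = 0.63). HSPE1, the co-chaperonin that helps imported proteins fold, stood at 0.70, 0.15, 0.097 and 0.38, above 0 on all 4 arrays, with a fit of 0.33 (-0.04 to 0.70). HSPA9, the motor chaperone of import, had a fit of 0.023, and was named after its values were seen.

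Of the assembly list, DHX30, an RNA helicase needed to build the mitochondrial ribosome, stood at -0.16, -1.20, -0.38 and -0.52, with a fit of -0.56 (95% interval -1.01 to -0.12; limma adjusted p = 0.63). TFB1M, which methylates the RNA of the small subunit, stood at 0.79 and 1.11 on replicates 1 and 2 and at -0.15 and 0.074 on replicates 3 and 4, with a fit of 0.46 (0.11 to 0.80; limma adjusted p = 0.63). TUFM, the elongation factor that brings tRNA to the ribosome, had a fit of -0.28 and MTRF1, a release factor, of -0.24. FARS2 and AARS2, which load phenylalanine and alanine onto mitochondrial tRNA, had fits of -0.35 and -0.29. TOP1MT, the mitochondrial topoisomerase, stood at 0.17, and PPRC1, a coactivator of nuclear genes for mitochondria, at -0.13.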

How the data were processed

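Per the labels' protocols, RNA was extracted, amplified and labelled chemically (Universal Linkage System). The deposited scanner tables hold, per the file headers, raw and local background pixel intensity per spot and dye, up to 65535. The authors also deposited log2 values per array. These correlated with subtracted, loess-normalized log2 Cy5 over Cy3 at r = 0.941 to 0.961 on every array, so they run as Cy5 over Cy3; their centring is unknown (column medians -0.0133, -0.013, -0.000395 and -0.0167). Limma was used per the submitters' processing notes.

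Here, median intensities were corrected with normexp (offset 50), normalized by loess with control spots at weight 0, and fitted with limma 3.58.1 (R 4.3.3). The model had a dye intercept and a coculture effect whose sign turned with the dyes. This left 2 residual degrees of freedom, to which eBayes added 6.03. The fit was also run on simulated ratios with known changes and independent noise of the fitted size. That checks the fitting code, not the normalization or effects of arrays and pools. The number of arrays limits the precision. Spots that the image quantification left out, 74 to 150 on an array, were given no value. Symbols are those of the platform's table; no genome coordinates were used, as the files name no build.

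Members and lists were chosen with earlier results of these data known. Genes described singly were those with an unadjusted p under 0.05, the 4 of smallest p per direction among MRPL and among MRPS, all tested TOMM and TIMM genes, the 4 with the widest gap between probes, and 2 per other list. Alternatives were background correction, normalization, pixel statistic, filter, dye term, variance model, the authors' table, the mean over probes, and leaving out each replicate.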

Additional observations from a re-analysis of the deposited data

How the results depend on the processing

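With 4 arrays, the half-width of a member's unadjusted interval had a median of about 0.35 on the log2 scale. This is not the limit of the adjusted test, which larger ratios did not pass either. MRPL28, at -0.79, had an adjusted p of 0.63 in limma. Effects larger than 0.35 may thus have been missed. The counts of 0 probes with an adjusted p under 0.05 in limma, over all probes and over members, stayed at 0 under every alternative run. The 2 higher member probes at an unadjusted p under 0.05 became 4 without background correction, 0 with median centring, 0 with mean pixel intensities, 1 with the stricter detection filter, 1 without the dye term, 1 with the trend and robust variance model, and 0 to 2 when 1 replicate was left out. The 7 lower ones became 4 with mean pixel intensities, and ranged from 0 without replicate 2 to 10 without replicate 1. The MRPS median became -0.053 without background correction, -0.044 with mean pixel intensities, -0.056 with the stricter filter and -0.060 with the mean over probes. The MRPL median ranged from -0.15 without replicate 1 to -0.0030 without replicate 2, and the TIMM median turned to 0.077 without replicate 2 and 0.0076 without replicate 4. Of the 26 genes described singly, 17 kept their direction under every alternative that gave a value, and 9 turned at least once, in 20 of 387 gene and setting pairs. With mean pixel intensities the turned values were -0.051 for MRPL10, -0.037 for MRPS18B, -0.081 for TOMM34, -0.12 for TOMM20, -0.12 for TIMM17A and 0.17 for TIMM9. With median centring they were -0.016 for TOMM34, -0.020 for TOMM20, -0.058 for TIMM17A and -0.054 for TOMM5, and without background correction 0.0033 for TIMM9. Leaving out 1 replicate at a time turned 7 genes, with ranges of -0.083 to 0.31 for MRPS10, -0.72 to 0.13 for TIMM44, -0.0096 to 0.17 for TOMM34, -0.081 to 0.21 for TOMM20, -0.13 to 0.19 for TIMM17A, -0.24 to 0.28 for TOMM5 and -0.19 to 0.17 for TIMM9. The cause of these moves was not tested. Each ratio pairs the coculture and control pools of 1 array, so every fit is paired in this sense. No further block on replicate number could be added, since the dye orientations share none.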

Other observations

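Of 31 results examined (26 genes described singly and 5 medians), 0 had a single array set apart from the other 3 by Dixon's criterion at the 95% level.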
